A study of Komagataella phaffii with 26 samples.

Results

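Of the 5040 genes measured in the yeast *Komagataella phaffii* X-33, 53 make up a group that rose late after a shift to alkaline medium. In cells grown on glycerol their mRNA was near its starting level after 15 min at alkaline pH and clearly above it after 60 min, at both pH values tried. The members were chosen on measured values. The level of a gene was taken as log2(RPKM + 1), where RPKM is reads per kilobase of gene, scaled to 1e6 mapped reads, and its change as the mean of a group of libraries minus the mean at time zero of the same course. A member had a change between -0.4 and 0.5 at 15 min and of at least 0.9 at 60 min in both glycerol courses, with a mean RPKM of at least 5 over the 26 libraries. Of the 4966 genes at that level, 225 passed the 60 min threshold in both courses whatever they did at 15 min. Of these, 53 kept inside the 15 min window in both courses.

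The cells were wild type and grew at 28 °C in YP medium with glycerol or glucose. They were collected by centrifugation and resuspended in fresh medium buffered with TAPS. In the first course, glycerol cultures went to pH 8.0 (10 libraries), in the next, glycerol cultures went to pH 8.2 (8 libraries), and in the last, glucose cultures went to pH 8.0 (8 libraries). Each course was sampled at 15, 30 and 60 min, with its own time zero taken right after resuspension at pH 5.5. There were 2 biological replicas per group, and 4 in the glycerol group kept at pH 8.0 for 15 min. No culture kept at pH 5.5 was sampled later, so alkaline pH, handling, fresh medium and elapsed time cannot be told apart in any change from time zero. A stressed culture was sampled repeatedly over the hour, whereas the p-values below treat every library as a separate culture. Libraries rest on 16.3 to 20.4 M mapped reads (M = 1e6; median 18.6), and a member had a median of 502 reads in a library and no fewer than 26.

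Yeasts meet alkaline medium with an early wave of transcription that, in *Saccharomyces cerevisiae*, runs through calcium signalling, the Rim101 pH pathway and nutrient signalling. At high pH, iron and copper are poorly soluble and the proton gradient that drives uptake across the plasma membrane weakens, so genes for metal and nutrient acquisition are among the known targets. The secretory pathway, which folds and glycosylates the proteins of the cell surface, has its own stress programme, led by the transcription factor Hac1. Gene names below are those the deposited annotation gives, mostly after the *S. cerevisiae* match, and roles are those known in that yeast unless stated. Of the members, 46 have a description there, 24 have a gene name and 20 are described only as hypothetical proteins. The other 7 have no description in the files and go by locus tag.

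On glycerol the members rose to different degrees by 30 min, and their median grew with time. At pH 8.0 their median change was 0.14 at 15 min, 0.56 at 30 min and 1.12 at 60 min, and at pH 8.2 it was -0.03, 0.38 and 1.25 at the same times. The median over the 5034 genes tested stayed between -0.08 and 0.13 in these 6 comparisons. In 51 of 53 members, in each glycerol course, the 30 min change lay between those at 15 and 60 min. Already at 30 min, 7 members had a change of at least 0.9 in both courses, and 44 had not reached it in either course. As the ratio of mean RPKM, the change at 60 min ran from 1.89 to 26.5 at pH 8.0 (median 2.27) and from 1.92 to 63.3 at pH 8.2 (median 2.47). Every 60 min library lay above every time zero library for 53 of 53 members in both glycerol courses, against 44.8% of all genes at pH 8.0 and 50.3% at pH 8.2. At 15 min the same held for 21 members at pH 8.0, against 27.2% of all genes, and for 13 at pH 8.2, against 27.9%. All of these values come from the contrast that chose the members and are given as a description.

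**Figure D1:**
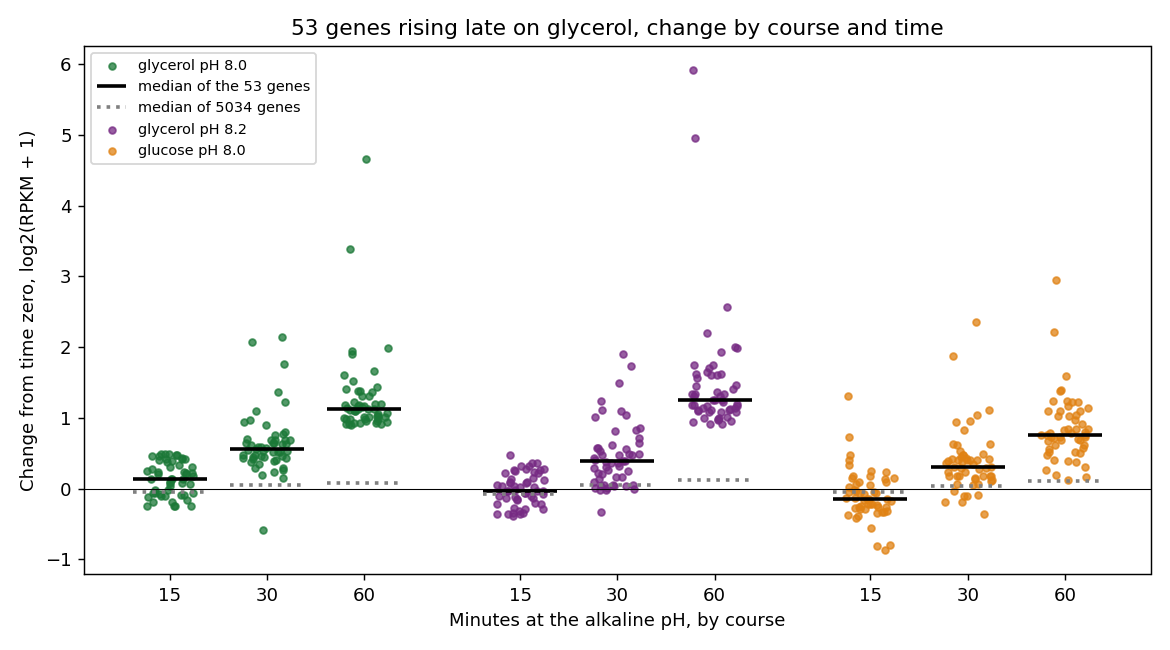
Change from time zero of the 53 members (points) at 15, 30 and 60 min in each course, on the log2(RPKM + 1) scale. Solid bars mark the median of the members and dotted bars the median of the 5034 genes tested. On glycerol the window at 15 min and the floor at 60 min follow from the rule. Glucose entered the rule only through the mean RPKM over the 26 libraries. The members' medians on glucose, -0.14, 0.31 and 0.76, follow the same order of times.

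The glucose course entered the choice of members only through the mean RPKM over the 26 libraries, so its changes could be tested. With limma on log2(RPKM + 1) over all 5034 genes and Benjamini-Hochberg adjustment, 43 of 53 members were higher at 60 min than at time zero at an adjusted p below 0.05, against 23.4% of all genes, and 0 were lower, against 11.1%. Against 15 min, 48 members were higher at 60 min, where 32.8% of all genes were. At 30 min, 20 members had risen against 18.6% of all genes, and 0 had fallen against 14.6%. At 15 min, 3 members were higher against 14.1% of all genes, and 6 were lower against 20.4%. The lower count at 15 min was 3 without time zero replicate 1 or without 15 min replicate 2. With the glucose libraries fitted alone, 5 members were higher and 16 lower at 15 min. Under the study's stricter thresholds, which add an unadjusted p below 0.01 and a change of at least 2-fold, 16 members were higher at 60 min (2.46% of all genes), 4 at 30 min (3.14%) and 1 at 15 min (2.6%). At an adjusted p below 0.05 alone, the count of 20 at 30 min also depended on single libraries. It was lower whichever library of time zero or 30 min was left out.

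All 53 members had a positive change on glucose at 60 min, as did 65.7% of all genes, and the median change was 0.76 against 0.10 for all genes. In 51 members both 60 min libraries lay above both time zero libraries, which 50.2% of all genes did. The exceptions were *C4QYV3* and *C4R484*. The rule applied to glucose alone was met by 17 members and by 52 genes in all, or 1.05% of those at the same RPKM. The change at 60 min was smaller on glucose than in both glycerol courses for 46 members, and the share of all genes was not counted. The median difference was -0.42 from pH 8.0 and -0.52 from pH 8.2, against 0.009 and -0.034 over genes of mean RPKM at least 5. The members were selected for a large change on glycerol, so this difference was not tested. The glucose and the glycerol pH 8.0 libraries also carry different series of library codes, so carbon source and set of libraries cannot be told apart there.

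**Figure D2:**
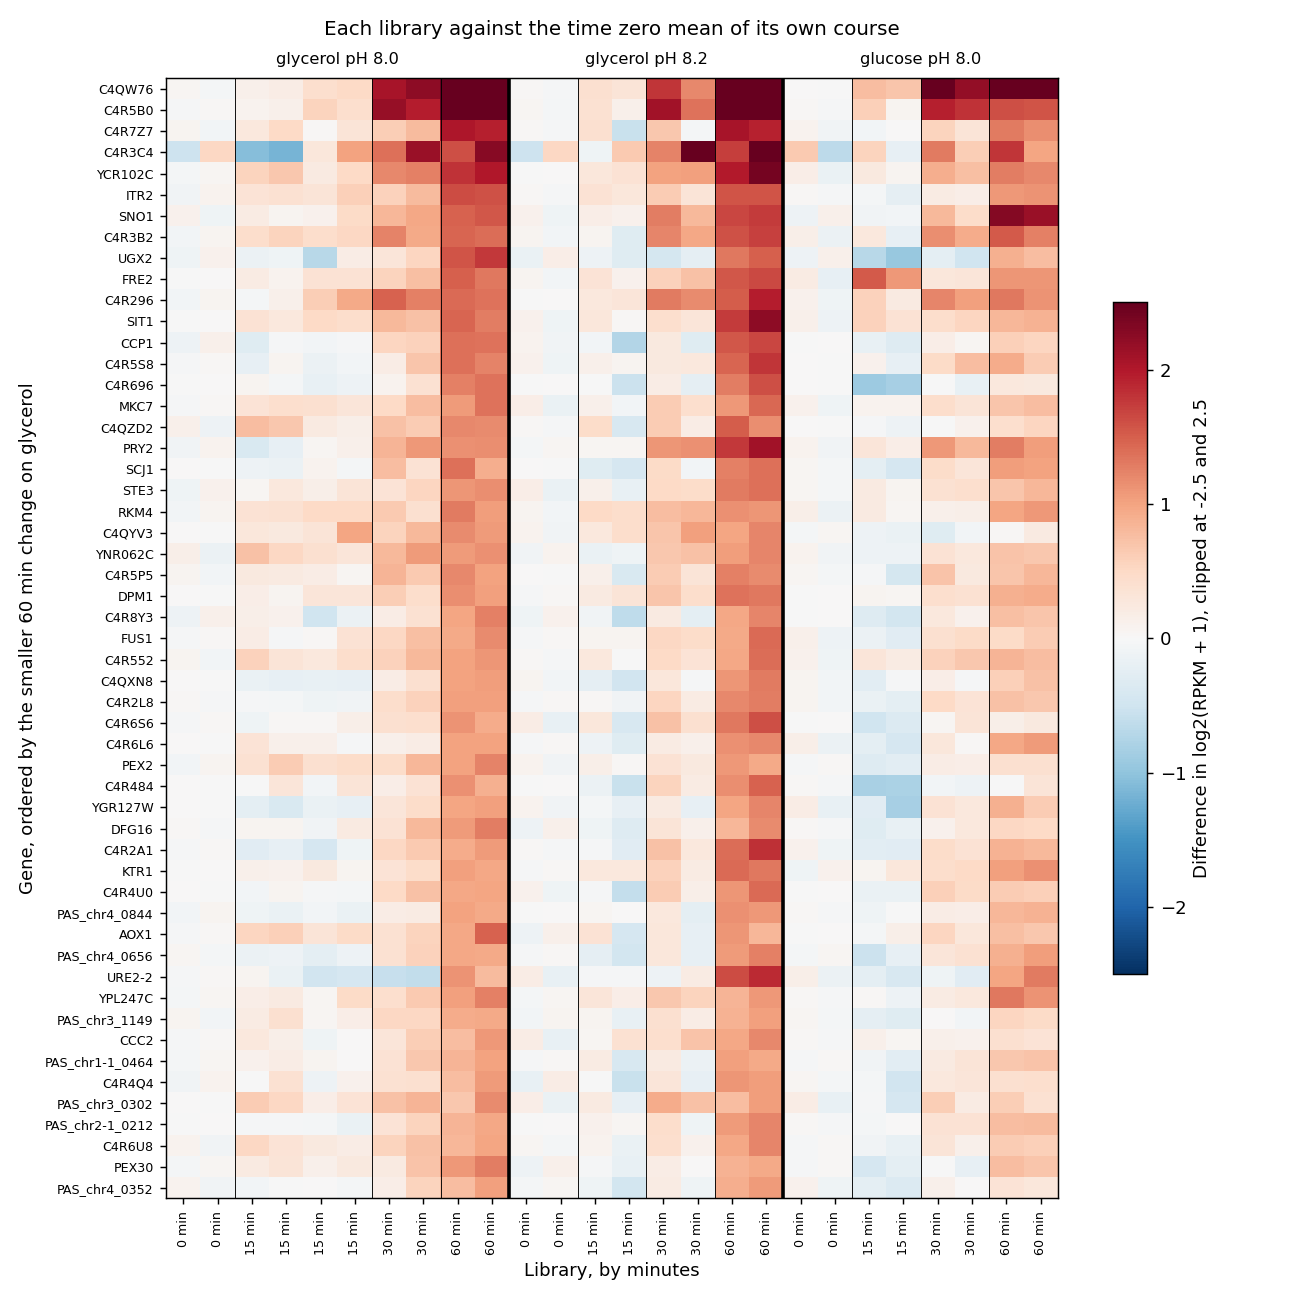
Each library (columns, by course and minutes) minus the mean of its course at time zero, in log2(RPKM + 1), for the 53 members (rows, ordered by the smaller 60 min change of the glycerol courses). The 60 min columns are red throughout on glycerol, as the rule requires, and paler for most members on glucose, where *SNO1* is the clearest exception; colours stop at -2.5 and 2.5.

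A pair of uncharacterised genes stood far ahead of the rest. *C4QW76* (PAS_chr1-1_0135, chromosome 1, 812397 to 813197, minus strand of the GS115 assembly ASM2700v1) encodes a hypothetical protein. At pH 8.2 it had 1503 and 1933 RPKM at 60 min, against 27.8 and 26.5 RPKM at time zero. At pH 8.0 it had 1311 and 885 RPKM at 60 min, against 43.0 and 39.9 RPKM at time zero. At 15 min its 6 glycerol libraries held 34.4 to 58.6 RPKM, so nearly all of the 63.3-fold and 26.5-fold increases came after that point. On glucose it had 30.1 and 29.7 RPKM at time zero, 51.8 and 48.7 RPKM at 15 min, 177 and 141 RPKM at 30 min and 230 and 244 RPKM at 60 min. There it rose at every time, by 0.73 at 15 min (SE 0.18, limma adjusted p = 0.00422), 2.36 at 30 min (adjusted p = 7.04e-09) and 2.95 at 60 min (adjusted p = 4.19e-10). Most of the glucose increase was thus in place by 30 min, whereas on glycerol the 30 min change was 46.0% of the 60 min change at pH 8.0 and 25.2% at pH 8.2, on the log2 scale.

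*C4R5B0* (chromosome 3, 1328171 to 1328875, minus strand) is another hypothetical protein gene. It had 378 and 637 RPKM at 60 min at pH 8.2, against 15.2 and 14.3 RPKM at time zero. At pH 8.0 it had 321 and 170 RPKM at 60 min, against 20.9 and 22.02 RPKM at time zero. No other member reached a change of 2 at 60 min in both glycerol courses. In glucose cultures it had 17.1 and 16.3 RPKM at time zero, 67.3 and 60.6 RPKM at 30 min and 53.0 and 51.4 RPKM at 60 min. Its glucose change was 1.88 at 30 min (SE 0.27, limma adjusted p = 2.29e-05) and 1.59 at 60 min (adjusted p = 0.000151). This gene and *C4QW76* also had the largest excess of pH 8.2 over pH 8.0 at 60 min, 1.58 and 1.25 on the log2 scale. At the other end of that order were *PEX30* (-0.27) and *UGX2* (-0.26), and 42 of 53 members had the larger change at pH 8.2. The share of all genes was not counted. The median excess was 0.165 for members and 0.032 over genes of mean RPKM at least 5. With libraries rescaled by the median of ratios, the members' median change at 60 min was 1.05 at pH 8.0 and 1.13 at pH 8.2. The 2 glycerol courses carry different series of library codes, so a difference between them cannot be told apart from one between sets of libraries.

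Genes of protein folding and glycosylation in the secretory pathway were among the best-measured members. *SCJ1* encodes a DnaJ-type co-chaperone of the endoplasmic reticulum (ER) lumen. It had 199 and 195 RPKM at 60 min on glucose, against 99.7 and 93.6 RPKM at time zero, an increase of 1.02 (SE 0.16, limma adjusted p = 5.03e-05). At 15 min on glucose it had 81.1 and 71.7 RPKM, both below time zero, though the change of -0.34 did not pass the test. *DPM1* makes dolichol-phosphate mannose, the mannose donor for glycosylation in the ER. On glycerol it had 666 and 650 RPKM at 60 min at pH 8.2, against 255 and 266 RPKM at time zero. Glucose cultures had 488 and 502 RPKM at 60 min, against 260.2 and 267 RPKM at time zero, an increase of 0.91 (SE 0.09, adjusted p = 2.18e-07). *KTR1*, named after a Golgi mannosyltransferase, had 743 and 808 RPKM at 60 min on glucose, against 336 and 392 RPKM at time zero. It rose by 1.09 there (SE 0.10, adjusted p = 1.42e-07), and had 1055 and 986 RPKM at 60 min at pH 8.2, against 387 and 403 RPKM at time zero. In all 3 genes both 60 min libraries on glucose lay above both time zero libraries, as in 51 of 53 members and 50.2% of all genes. On glycerol all 53 members, chosen for that rise, were separated in this way.

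The wider list of ER folding, translocation and glycosylation genes holds 15 described genes, 2 of them members. On glucose at 60 min 10 of the 15 were higher and 3 lower at the adjusted p, with a median change of 0.99 against 0.10 for all genes. The descriptions cover only genes that the study called changed in these samples, so this and the other lists below are not independent evidence of a direction, and only 13 members fall in any list.

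Metal uptake was represented by 3 members. *FRE2* encodes a ferric and cupric reductase of the cell surface that prepares metal ions for uptake. On glycerol it climbed slowly, at pH 8.0 with 9.66 and 9.72 RPKM at time zero, 10.3 to 12.7 RPKM at 15 min, 14.7 and 16.9 RPKM at 30 min and 29.3 and 25.5 RPKM at 60 min. On glucose it had 14.8 and 10.9 RPKM at time zero, 38.8 and 28.2 RPKM at 15 min, 15.7 and 15.9 RPKM at 30 min and 28.4 and 28.5 RPKM at 60 min. *FRE2* was thus high early on glucose, back near its start at 30 min and high again at 60 min. The change was 1.31 at 15 min (SE 0.15, limma adjusted p = 1.08e-06), 0.29 at 30 min (adjusted p = 0.143) and 1.10 at 60 min (adjusted p = 9.13e-06). It was the only member past the study's thresholds on glucose at 15 min. The early change was not tested against glycerol, where the 15 min values chose the gene.

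*SIT1*, a transporter of the iron carrier ferrioxamine B, had 24.9 and 35.1 RPKM at 60 min at pH 8.2, against 7.24 and 6.13 RPKM at time zero. At pH 8.0 it had 21.6 and 19.1 RPKM at 60 min, against 7.16 and 7.27 RPKM at time zero. On glucose *SIT1* had 12.9 and 13.4 RPKM at 60 min, against 7.58 and 6.18 RPKM at time zero (change 0.85, SE 0.14, limma adjusted p = 0.000123). At 15 min its change was 0.47 on glucose (adjusted p = 0.0140), beside 0.39 in the pH 8.0 and 0.16 in the pH 8.2 course on glycerol. The glucose call was lost without time zero replicate 2 (adjusted p = 0.146) or without 15 min replicate 1 (adjusted p = 0.131). *CCC2* pumps copper into the secretory pathway, where it loads copper enzymes of iron uptake. It had 43.4 and 54.4 RPKM at 60 min on glycerol at pH 8.0, against 24.7 and 25.4 RPKM at time zero. The glucose libraries had 43.3 and 41.9 RPKM at 60 min, against 33.4 and 31.9 RPKM at time zero, a change of 0.37 that did not pass (adjusted p = 0.063). Among the 26 described genes of iron, copper and zinc, 8 were called higher and 8 called lower after 60 min on glucose, with a median change of 0.05.

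*SNO1* had the largest excess of the glucose over the glycerol change at 60 min among the members, 0.70 over pH 8.0 and 0.51 over pH 8.2. Its product is the glutaminase subunit that works with Snz proteins to make pyridoxal phosphate, the active form of vitamin B6. In the glucose course it had 27.1 and 32.5 RPKM at time zero, 27.9 and 28.1 RPKM at 15 min, 52.9 and 41.0 RPKM at 30 min and 149 and 136 RPKM at 60 min. The increase at 60 min was 2.22 (SE 0.15, limma adjusted p = 1.59e-09). On glycerol it had 56.6 and 60.1 RPKM at 60 min at pH 8.0, against 21.3 and 18.2 RPKM at time zero. *SNO1* (chromosome 1, 2132248 to 2132925, minus strand) lies head to head with *SNZ2*, with 278 bases between the gene models. *SNZ2* is no member, because its change at 15 min was above the window, at 0.99 at pH 8.0 and 0.72 at pH 8.2. Its changes at 60 min were 2.19 and 2.48 on glycerol at pH 8.0 and 8.2 and 3.17 on glucose, each larger than that of *SNO1*.

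**Figure D3:**
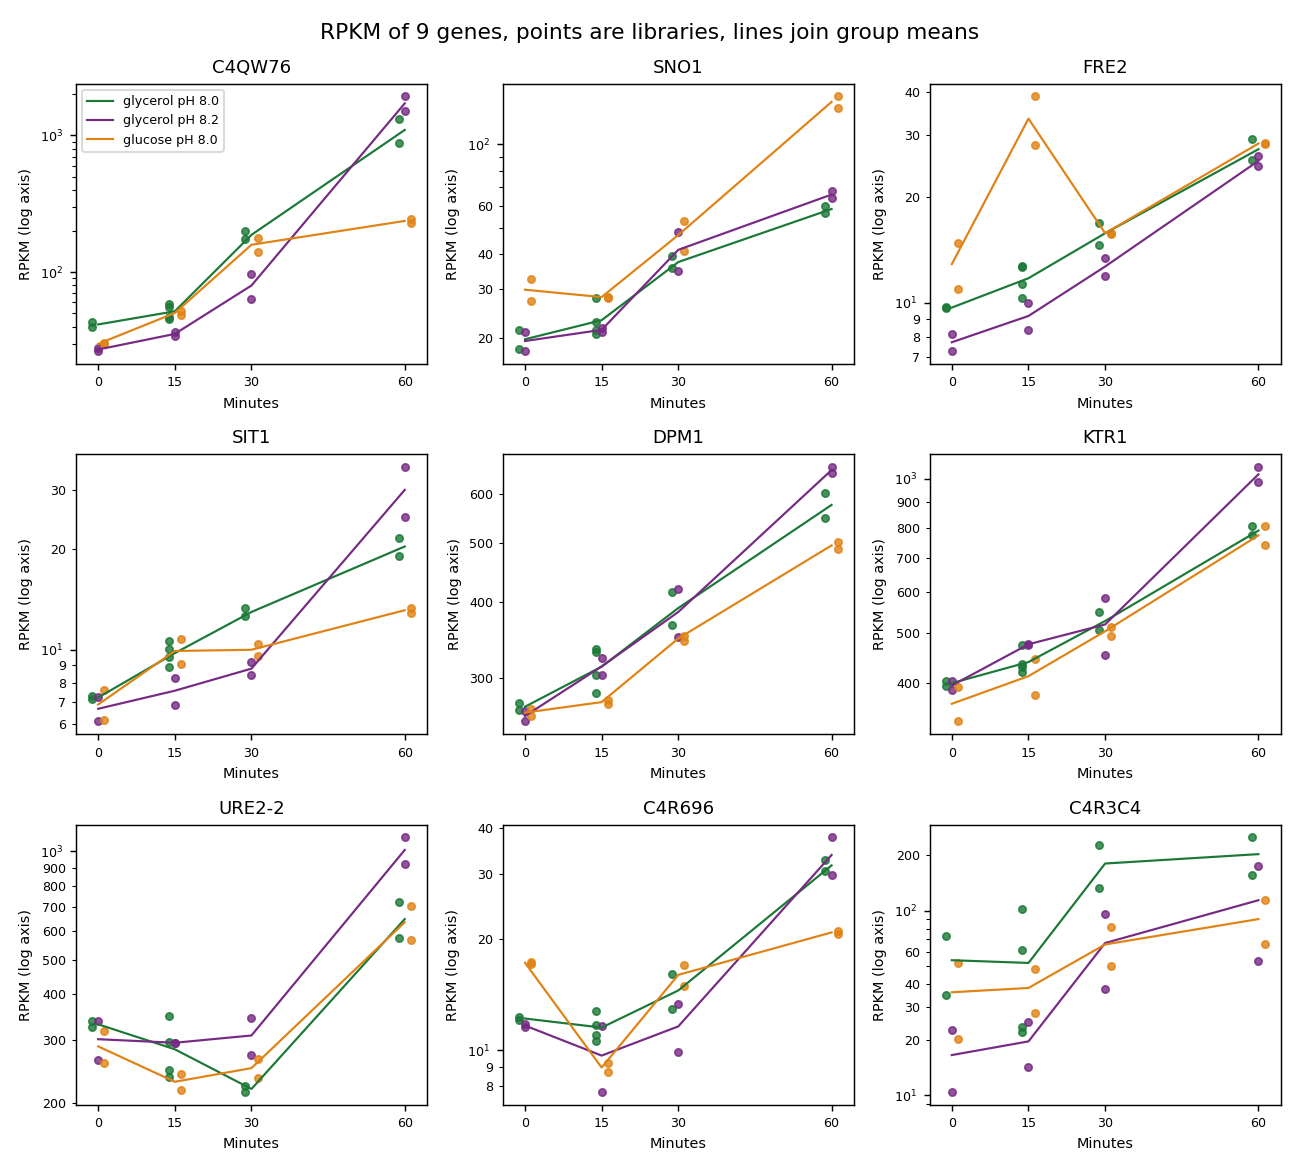
RPKM (log axis) against minutes for 9 members, with a point per library and lines through group means. *FRE2* on glucose (orange) reaches 38.8 and 28.2 RPKM at 15 min and drops back, *SNO1* ends highest on glucose, *URE2-2* stays flat or dips until 30 min, and the libraries of *C4R3C4* spread widely at every time.

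*URE2-2* and *ITR2* belong to nutrient regulation and uptake. *URE2-2* is named after the regulator that keeps nitrogen catabolite genes off when good nitrogen sources are present. At pH 8.0 on glycerol it had 325 and 337 RPKM at time zero, a lower 223 and 215 RPKM at 30 min, and 721 and 574 RPKM at 60 min. At pH 8.2 it had 923 and 1091 RPKM at 60 min, against 338 and 264 RPKM at time zero. On glucose it had 316 and 258 RPKM at time zero, 241 and 218 RPKM at 15 min, 266 and 234 RPKM at 30 min and 568 and 702 RPKM at 60 min. The whole of its increase, 1.14 on glucose at 60 min (SE 0.17, limma adjusted p = 4.39e-05), therefore appeared between 30 and 60 min. *ITR2* encodes a myo-inositol transporter and had 54.3 and 56.0 RPKM at 60 min on glucose, against 25.6 and 24.6 RPKM at time zero (change 1.10, SE 0.11, adjusted p = 1.89e-07). At 30 min on glucose it was at 29.1 and 28.2 RPKM, a change of 0.18. These 2 members flank 1 other gene model on chromosome 2, PAS_chr2-1_0851, which changed by 0.81 and 0.43 on glycerol at 60 min at pH 8.0 and 8.2 and lies 25 bases from *URE2-2*. The described genes of amino acid and nitrogen metabolism numbered 61, of which 16 were called higher and 27 lower at 60 min on glucose (median change -0.28).

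Peroxisomes and methanol use were represented by 3 members. *PEX2* encodes a peroxisomal membrane protein needed for protein import, and *PEX30* is named after a membrane protein that regulates peroxisome number. *PEX2* had 26.3 and 30.8 RPKM at 60 min at pH 8.0 on glycerol, against 11.9 and 13.2 RPKM at time zero. Glucose cells had 22.5 and 22.5 RPKM at 60 min, against 16.7 and 17.1 RPKM at time zero (change 0.40, SE 0.12, limma adjusted p = 0.0123), a call lost without time zero replicate 1 or either 60 min replicate (adjusted p = 0.0583 to 0.0609). *PEX30* rose by 0.73 on glucose (SE 0.13, adjusted p = 0.000342). *AOX1*, the alcohol oxidase that starts methanol use in *K. phaffii* and is kept low by both glycerol and glucose, was the member with the lowest mean RPKM, at 7.29. It had 11.4 and 16.5 RPKM at 60 min at pH 8.0 on glycerol, against 5.14 and 5.47 RPKM at time zero, and 7.29 and 6.89 RPKM at 60 min on glucose, against 3.92 and 3.96 RPKM at time zero. The glucose change of 0.71 passed the test (adjusted p = 0.0140) but not once any 1 of the 4 libraries was left out (adjusted p = 0.0512 to 0.0772). *K. phaffii* has another, closely similar alcohol oxidase gene, and reads shared by both make the value uncertain. Of 13 described genes of peroxisomes and methanol use, 8 were higher and 1 lower on glucose at 60 min, with a median of 0.73.

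Dehydrogenases and a peroxidase formed a further set. *C4R7Z7*, described as a mitochondrial aldehyde dehydrogenase, had 42.6 and 40.3 RPKM at 60 min at pH 8.0 on glycerol, against 10.2 and 9.16 RPKM at time zero, a ratio of 4.27. On glucose it rose by 1.23 (SE 0.23, limma adjusted p = 0.000384), with 34.4 and 30.9 RPKM at 60 min, against 14.3 and 12.4 RPKM at time zero. *YCR102C*, with similarity to dehydrogenases, sat at the upper edge of the 15 min window (0.49 at pH 8.0) and reached 27.1 and 36.5 RPKM at 60 min at pH 8.2, against 6.07 and 6.12 RPKM at time zero. Its glucose change at 60 min was 1.24 (SE 0.15, adjusted p = 1.99e-06). *CCP1*, the mitochondrial cytochrome c peroxidase, sat at the lower edge (-0.39 at pH 8.2). It had 25.6 and 28.1 RPKM at 60 min at pH 8.2, against 8.59 and 7.60 RPKM at time zero. On glucose it had 20.7 and 19.8 RPKM, against 13.2 and 13.4 RPKM at time zero, a change of 0.57 (SE 0.18, adjusted p = 0.0163) that did not pass once any 1 of the 4 libraries was left out (adjusted p = 0.057 to 0.0871). In 49 described genes of mitochondria and respiration, 9 were higher and 16 lower on glucose at 60 min.

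Several members act at the cell surface or in mating. *PRY2*, which belongs to a family of secreted sterol-binding proteins, had 463 and 588 RPKM at 60 min at pH 8.2, against 131 and 142 RPKM at time zero. In glucose cells it had 345 and 294 RPKM at 60 min, against 151 and 133 RPKM at time zero, and its change was 0.94 at 30 min (limma adjusted p = 5.88e-05) and 1.17 at 60 min (SE 0.15, adjusted p = 5.6e-06). *MKC7*, a GPI-anchored aspartyl protease (yapsin) that trims proteins at the cell surface, rose by 0.73 on glucose at 60 min (SE 0.14, adjusted p = 0.000547), to 13 and 13.9 RPKM, against 8.32 and 7.09 RPKM at time zero. Its divergent neighbour across 2131 bases, *HAC1*, changed by 2.57 and 3.59 at 60 min on glycerol at pH 8.0 and 8.2 and was above the 15 min window. *STE3*, the receptor for the mating pheromone a-factor, had 16.6 and 17.4 RPKM at 60 min at pH 8.2, against 6.95 and 5.37 RPKM at time zero. It rose by 0.76 on glucose (SE 0.13, adjusted p = 0.000151). Just upstream of it, with 113 bases between the gene models and on the same strand, lies *C4R5S8* (chromosome 3, 1678096 to 1678518), a hypothetical protein gene and the only member next to another. *C4R5S8* had 14.8 and 18.6 RPKM at 60 min at pH 8.2, against 5.15 and 4.33 RPKM at time zero, and rose by 0.78 on glucose (SE 0.17, adjusted p = 0.00113). The libraries do not keep the strand, and for neighbours this close reads running past the end of the first model were not examined. Of the 10 described genes of meiosis, sporulation and mating, 1 was higher and 3 were lower on glucose at 60 min.

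A pair of genes singled out after their values were seen belong here by their names. *DFG16* is described as a pH-response regulator and corresponds to a plasma membrane protein of the Rim101 pathway, which senses external pH. It had 73.9 and 94.3 RPKM at 60 min at pH 8.2, against 37.4 and 45.4 RPKM at time zero, and 64.7 and 63.8 RPKM at 60 min on glucose, against 45.4 and 44.0 RPKM at time zero. The glucose change of 0.51 passed the test (SE 0.14, limma adjusted p = 0.00843) but not without time zero replicate 2 (adjusted p = 0.0565). *FUS1*, named after a membrane protein of mating cell fusion, changed by 0.55 on glucose (adjusted p = 0.00708), a call lost without time zero replicate 2 (adjusted p = 0.101) or without 60 min replicate 2 (adjusted p = 0.0746).

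Other genes called 2-fold on glucose at 60 min included *RKM4*, a SET-domain methyltransferase of ribosomal protein, with 109 and 117 RPKM against 60.5 and 49.3 RPKM at time zero (change 1.04, limma adjusted p = 4.02e-07). *YPL247C*, a WD-repeat protein gene, had 53.1 and 46.6 RPKM, against 21.3 and 20.2 RPKM at time zero (change 1.22, adjusted p = 3.78e-07). Hypothetical protein genes made up much of the remainder. *C4R3B2* (1.39), *C4R296* (1.22) and *C4R6L6* (1.02) passed the same thresholds, and *C4R3B2* and *C4R296* had done so at 30 min, by 1.05 and 1.12. *C4R296* was also one of the most abundant members, with 679 and 588 RPKM at 60 min on glucose, against 292 and 249.9 RPKM at time zero. The most abundant of all was PAS_chr4_0844, which has no name in the files, with a mean of 769 RPKM and 1039 and 1060 RPKM at 60 min on glucose, against 593 and 573 RPKM at time zero (change 0.85, adjusted p = 3.51e-06).

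Some members were lower first on glucose, 6 at a limma adjusted p below 0.05 at 15 min, against 20.4% of all genes. On glycerol the rule excluded a change of -0.4 or lower at 15 min, so a larger fall could appear only on glucose. At 15 min on glycerol *C4R696*, *UGX2* and *C4R484* changed by -0.08, -0.19 and 0.14 at pH 8.0. At pH 8.2 they changed by -0.27, -0.21 and -0.35. *C4R696*, a hypothetical protein gene, had 8.71 and 9.23 RPKM at 15 min, against 17.3 and 17.2 RPKM at time zero, a decrease of -0.87 (SE 0.16, limma adjusted p = 0.000224). It was back at 17.03 and 14.9 RPKM at 30 min and had 20.99 and 20.7 RPKM at 60 min, a change of 0.26 from time zero that did not pass (adjusted p = 0.212), while its increase of 1.13 from 15 to 60 min did (adjusted p = 1.36e-05). *UGX2* likewise fell by 0.82 at 15 min (adjusted p = 0.00453) and was up by 0.83 at 60 min (adjusted p = 0.00394). Its 15 min call was lost without time zero replicate 2 (adjusted p = 0.053) or without 15 min replicate 2 (adjusted p = 0.0599). *C4R484*, also hypothetical, fell by 0.80 at 15 min (adjusted p = 0.00111) and had a change of 0.16 at 60 min (adjusted p = 0.487). The smallest glucose change at 60 min was that of *C4QYV3*, with 22.7 and 26.2 RPKM, against 21.4 and 23.1 RPKM at time zero (change 0.13, adjusted p = 0.625), and *C4R6S6* (0.19, adjusted p = 0.431) and PAS_chr4_0352 (0.31, adjusted p = 0.0942) did not pass either.

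**Figure D4:**
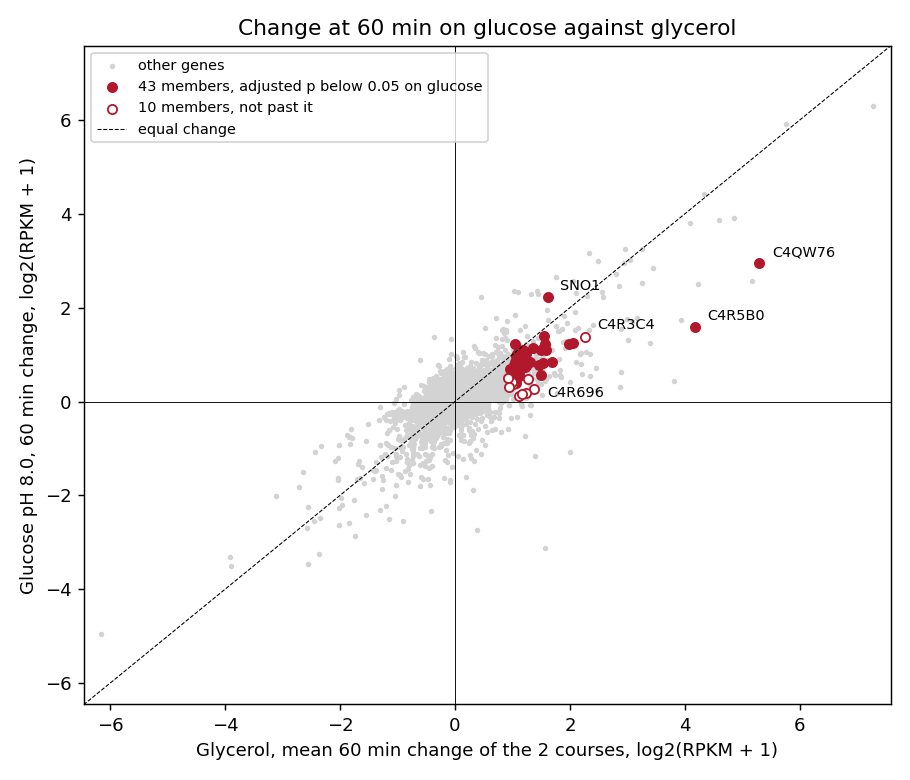
Change at 60 min on glucose at pH 8.0 (vertical) against the mean change of the glycerol courses (horizontal), both in log2(RPKM + 1), for the 53 members (red) and the other genes tested (grey). Filled points are the 43 members past an adjusted p of 0.05 on glucose and open points the other 10; most members lie below the dashed line of equal change, and *SNO1* lies above it.

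Replicates separated some members. *C4R3C4*, a hypothetical protein gene, had 155 and 249 RPKM at 60 min at pH 8.0, against 34.7 and 73.0 RPKM at time zero. Its 4 libraries at 15 min, replicates 1 to 4, held 23.5, 21.9, 61.3 and 102 RPKM. The library codes of replicates 1 and 2 are numbered apart from the course's other libraries. *C4R296* likewise had 388 and 439 RPKM in replicates 1 and 2 and 614 and 774 RPKM in replicates 3 and 4. Its time zero libraries had 381 and 419 RPKM. The place of *C4R3C4* inside the 15 min window depends on averaging these sets. For *C4R296*, replicates 1 and 2 lay near the time zero values and replicates 3 and 4 above both of them. Its mean change over the 4 libraries was 0.42. At pH 8.2 *C4R3C4* had 53.6 and 174 RPKM at 60 min, against 10.5 and 22.6 RPKM at time zero. Its replicates differed by up to 1.68 on the log2 scale. On glucose replicate 1 had 52.1, 48.4, 81.1 and 114 RPKM at 0, 15, 30 and 60 min, and replicate 2 had 20.2, 27.9, 50.1 and 65.7 RPKM, so replicate 1 was the higher at every time and both ended above their start. The glucose change of 1.39 at 60 min had an SE of 0.70 (limma adjusted p = 0.134), and passed when the glucose libraries were fitted alone (adjusted p = 0.0232). More widely, at pH 8.2 replicate 2 was the lower library at 15 and 30 min, being higher in 10 and 11 of 53 members, with median differences of -0.19 and -0.30, against -0.06 and 0.04 over genes of mean RPKM at least 5. At 60 min it was the higher one in 42 members and in 65.0% of those genes, with median differences of 0.19 and 0.07. On glycerol at pH 8.0, replicate 2 was the higher at 30 min in 43 members and in 62.0% of those genes, with median differences of 0.18 and 0.07. Without the 15 min library of replicate 2 at pH 8.2 the rule returned 63 genes, including 52 of the members, and without replicate 1 at 15 min it returned 38, including 37.

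The edges of the rule fell within a continuous range. Just inside the 60 min threshold were PAS_chr4_0352 (0.90 at pH 8.0) and *PEX30* (0.906 at pH 8.2), and just outside were PAS_chr1-3_0129 (0.895 at pH 8.0) and PAS_chr1-3_0299 (0.880 at pH 8.2). At 15 min *YCR102C* (0.489) and *CCP1* (-0.394) were just inside, and *YMR321C* (0.508) and PAS_chr3_1130 (-0.424) just outside. Members resembled other genes in length (median 1227 bases, against 1203 for genes of mean RPKM at least 5) and were lower in level (median of the mean RPKM 20.4, against 54.7), with 26 of 53 between 5 and 20 RPKM. They lay on all 4 chromosomes. Among genes of mean RPKM at least 5 they were 11 of 1507 on chromosome 1 and 12 of 1315 on chromosome 2. There were 16 of 1184 on chromosome 3 and 14 of 960 on chromosome 4, and the spread was not tested. No gene model of a member overlapped another.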

How the data were processed

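RNA-seq libraries were non-directional and made from poly-A RNA; the authors mapped single reads with Bowtie2 (version not given in the sources used here) to the GS115 assembly. The deposited values are RPKM, which the authors computed per gene with SeqMonk v1.48.0. A value times gene length is a whole multiple of 1 read (100% of values of 1 to 2000 reads within 0.02), which gave the depth; 92.4 to 93.9% of reads lay in genes. The authors' deposited fold changes and p-values for 772 genes were not used; only names and descriptions were taken.

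Groups came from the sample labels. A gene entered the fit when 2 or more libraries reached an RPKM of 1 (5034 genes). limma 3.58.1 (R 4.3.3) fitted 12 group means to log2(RPKM + 1) over 26 libraries (14 residual degrees of freedom, trended moderation), and only glucose contrasts were tested, with Benjamini-Hochberg adjustment per contrast; the fit was tested on simulated data. Fold changes on this scale understate those of low genes. Figures and tables used Python 3.11.15. Named genes were the largest and smallest changes, all members called 2-fold on glucose against time zero, the most abundant, members of keyword lists, those at the edges of the rule, neighbours, and 2 chosen after their values were seen. The members and lists were chosen with earlier results of these data known. Planned motif counts in promoters were not run, since sequence was not used here. Alternatives were other pseudocounts, filters and scaling, glucose libraries alone, a replicate block and leaving out single libraries.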

Additional observations from a re-analysis of the deposited data

Results flagged for a closer look

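Dixon's test on log2(RPKM + 1) was run in glycerol at pH 8.0 after 15 min, the only group of 4 libraries. It flagged a library in 4 of 53 members. The test weighs a gap against the range of the 4 libraries, so a small difference can pass. Chance passes it in about 1 in 20 groups, and the share of all genes was not counted. *CCP1* had 7.84 RPKM in replicate 1, against 9.46 to 9.72 RPKM in the others. *C4QYV3* had 24.8 RPKM in replicate 4, against 14.5 to 15.3 RPKM. PAS_chr4_0656 had 31.6 RPKM in replicate 3, against 33.8 to 34.3 RPKM, and PAS_chr2-1_0212 had 109 RPKM in replicate 4, against 119 RPKM in each of the others.

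For 5 members both 30 min libraries lay below the time zero mean on glucose. In a glycerol course both of their 30 min libraries lay above the time zero mean of that course. The members were chosen for a rise on glycerol, the share of all genes was not counted, and the differences were not tested. *C4QYV3* changed by -0.19 on glucose, against 0.69 at pH 8.0 and 0.85 at pH 8.2 on glycerol. *C4R484* changed by -0.10 on glucose, against 0.26 and 0.38 on glycerol at pH 8.0 and 8.2, and *PEX30* by -0.10, against 0.46 and 0.10. *UGX2* changed by -0.36 on glucose, against 0.43 on glycerol at pH 8.0, and *C4R696* by -0.11, against 0.23.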

How the results depend on the processing

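Members called on glucose numbered 43 at 60 min, and every listed alternative was within 1.5 times of it (38 to 50, all higher), as it was for 60 against 15 min (48, range 44 to 52). With single libraries left out the ranges were 38 to 41 and 44 to 46. At 15 min the count was 9, but 21 (5 higher, 16 lower) with the glucose libraries fitted alone, and 6 to 7 with single libraries left out. At 30 min it was 20, and 12 to 16 with single libraries left out. The median glucose change at 60 min was 0.764, against 0.818 and 0.641 with pseudocounts of 0.1 and 5, 0.681 with libraries rescaled by the median of ratios, and 0.720 to 0.817 without single libraries. Rescaling moved the median of all genes by more than 0.1 only at pH 8.2 after 60 min, to 0.01 from 0.13; it left 53 of 53 members above 0 at 60 min in every course. Membership depended on scaling: the rule returned 34 genes after rescaling (31 of them members), 27 with a mean RPKM of at least 20 and 40 with a pseudocount of 5 (27 of them members). Without single glycerol libraries it returned 38 to 63, and 21 members were kept in all 14 of those settings. Rescaled, or without 15 min replicate 2, *FRE2* was called lower at 60 than at 15 min on glucose. Same-numbered replicates of a course share a number and mostly a run of consecutive library codes, but no label names a culture. At 15 min on glycerol at pH 8.0, replicates 1 and 2 are numbered apart from those runs. Deviations of same-numbered replicates correlated by 0.11 to 0.36 in the glucose course, 0.08 to 0.66 on glycerol at pH 8.0 and 0.06 to 0.72 at pH 8.2. A replicate block set by replicate number gave 13, 23, 47 and 50 calls at 15, 30, 60 and 60 against 15 min. With that block *C4R3C4* was called at 60 min (limma adjusted p = 0.000175). Low genes limit precision, 26 reads being the fewest behind a member's value.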
